A study of Mus musculus with 25 samples.

Results

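The comparison described here was between a high-fat diet (HFD) and a low-fat diet (LFD) after 4 weeks of feeding, in gonadal white adipose tissue of male mice. Arrays were chosen by title: 3 carried the label for HFD and 4 the label for LFD at that time, which made 7 of the 25 arrays of the series. Each array held the RNA of 1 mouse, labelled as a biological replicate, and was an Affymetrix Mouse Gene 2.0 ST array. All mice, in every group, were heterozygous for the apoE3L.CETP transgenes, which give mice a human-like apolipoprotein E3-Leiden and cholesteryl ester transfer protein, so no comparison with wild-type mice was possible. Feeding began at the age of 12 weeks, and mice of both groups were 16 weeks old at tissue collection. The LFD (D12450B) supplied 10% fat, 70% carbohydrate and 20% protein. The HFD (D14010701) supplied 60% fat, 20% carbohydrate and 20% protein and also contained 0.25% cholesterol, so fat, carbohydrate and cholesterol differed together and their parts cannot be told apart. For reference, 2 arrays of mice on chow were used, and 8 arrays at 8 weeks and 8 at 12 weeks of the same diets. Per the labels, chow mice were 12 weeks old, 8-week mice 20 and 12-week mice 34, so age differed between these groups, and the last age is older than a start at 12 weeks would give.

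White adipose tissue stores triglyceride, and its adipocytes enlarge when dietary fat is plentiful. Enlargement is known to be accompanied by secretion of signalling proteins, remodelling of the collagen matrix around each cell and, later, recruitment of macrophages. Adipocytes also make fatty acids from carbohydrate (de novo lipogenesis), and that pathway is known to be lower when the diet holds much fat and little carbohydrate.

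Levels are on the log2 scale as deposited, so a difference of 1 is 2-fold. Fat identity was present on all 7 arrays: Adipoq, the adipokine adiponectin, was at 11.59, 11.70 and 11.60 on HFD and at 11.57, 11.69, 11.65 and 11.58 on LFD. Transcripts of other organs were also present. Gpx5, a glutathione peroxidase of the epididymis, was at 13.21 on HFD array 1 against 3.71 and 3.38 on HFD arrays 2 and 3. On LFD it was at 9.13 on array 1 and 6.53 on array 2, against 3.72 and 3.86 on the other two. On chow it was at 13.60 on array 1 and 3.69 on array 2. The mean of 11 epididymis genes was 10.43 on HFD array 1 and 5.88 on LFD array 1, and lay between 4.01 and 4.33 on the other 5 arrays. The mean of 22 hepatocyte genes was 7.50 on HFD array 1 and 7.81 on LFD array 1, and between 5.53 and 6.47 on the rest. LFD array 1 also stood apart in general: its correlation with the other 6 arrays was 0.936 to 0.948, against 0.974 to 0.992 for the remaining pairs, and its median of 5.36 was the highest (5.07 to 5.17 elsewhere). Results are therefore given with all arrays and also without array 1 of HFD, LFD and chow. A fit with the mean epididymis and hepatocyte levels of each array as covariates was also run. In RNA of whole tissue, more cells of a type and more RNA per cell cannot be told apart.

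**Figure D1:**
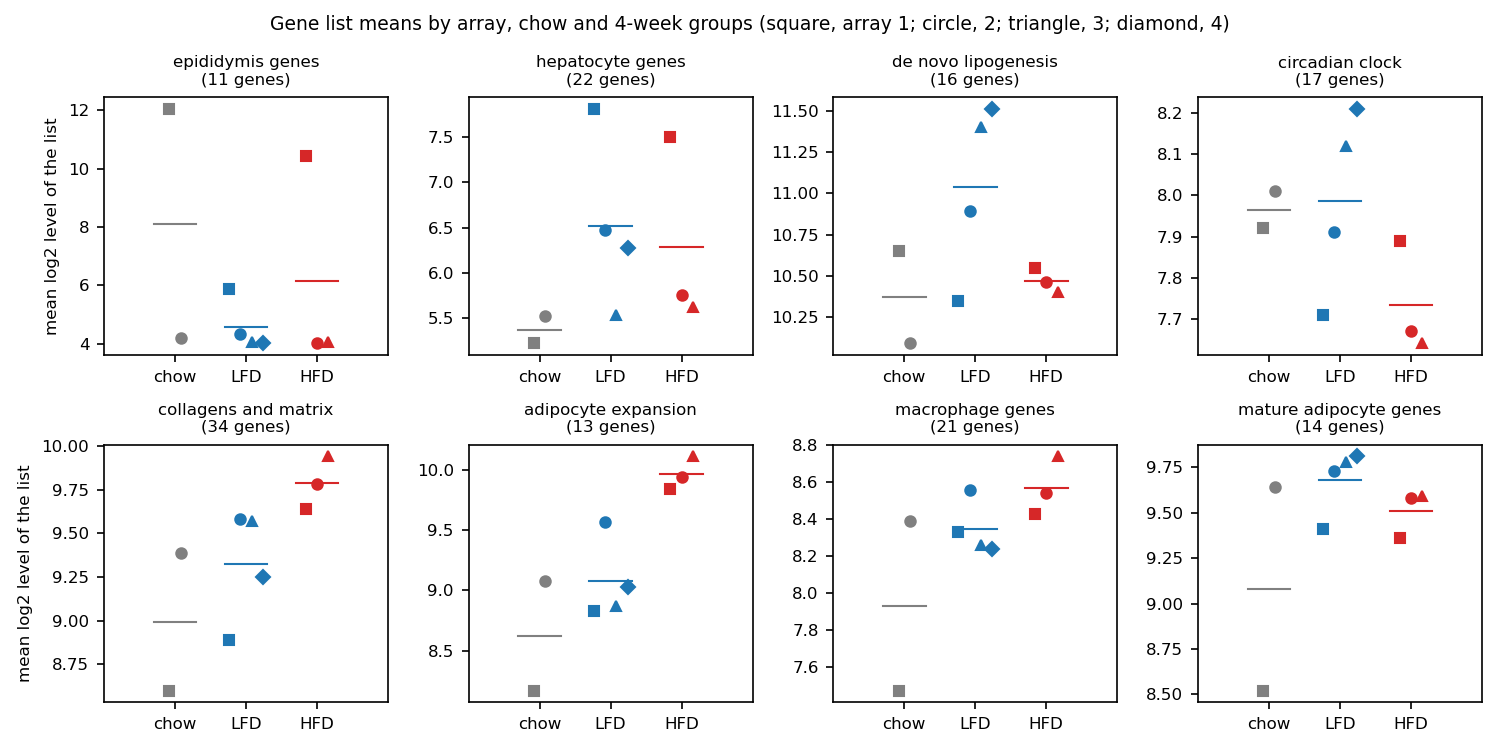
Mean log2 level of 8 gene lists (y axis) on each chow, LFD and HFD array of the 4-week comparison. Symbols mark the array number and bars the group mean. Epididymis genes were at 12.04 on chow array 1 and 10.43 on HFD array 1, and the adipocyte expansion list lay between 9.84 and 10.11 on HFD against 8.83 to 9.57 on LFD.

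The diets differed in 47 of 22180 genes (0.212%) at an adjusted p under 0.05, 42 of them higher (0.189%) and 5 lower (0.0225%) on HFD. The genes with an established symbol that rose most were Sfrp5, Rnase2a, Slc5a7, Cdkn1a and Hspb7, and Angpt1 fell most. At an unadjusted p under 0.05 there were 2069 genes (9.33%), 1061 higher and 1008 lower, and the median difference of all genes was -0.0017. The HFD and LFD arrays did not overlap in 46 of the 47 called genes, against 2016 of all genes (9.09%, with 4.68% higher and 4.41% lower on HFD). Choice by the difference between these same arrays favours such separation, so it is a description and not further support. In 42 of the 47, LFD array 2 was the LFD array nearest the HFD mean, against 32.9% of all genes. In 41 of the 47, HFD array 3 was the farthest from the LFD mean, against 41.5% of all genes.

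The calls rested on the spread pooled over all 25 arrays. A fit of the 7 arrays alone called 0 genes with limma (1687 with an unadjusted p under 0.05). That fit uses the same group means, so the differences are identical and their direction could not change. Leaving out HFD array 3 left 2 calls, Cdkn1a and Hmgcs1, and leaving out LFD array 2 gave 100. Over the 7 fits that each left out 1 array, the differences of the 47 genes stayed between 0.77 and 1.26 times their reported value. The 47 were chosen by these same arrays, so that range is a description. Of the 47, 2 were called in all 7 of these fits and 17 in 6 of them. Another 10 were called in only 2 of the fits and 10 in only 1.

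**Figure D2:**
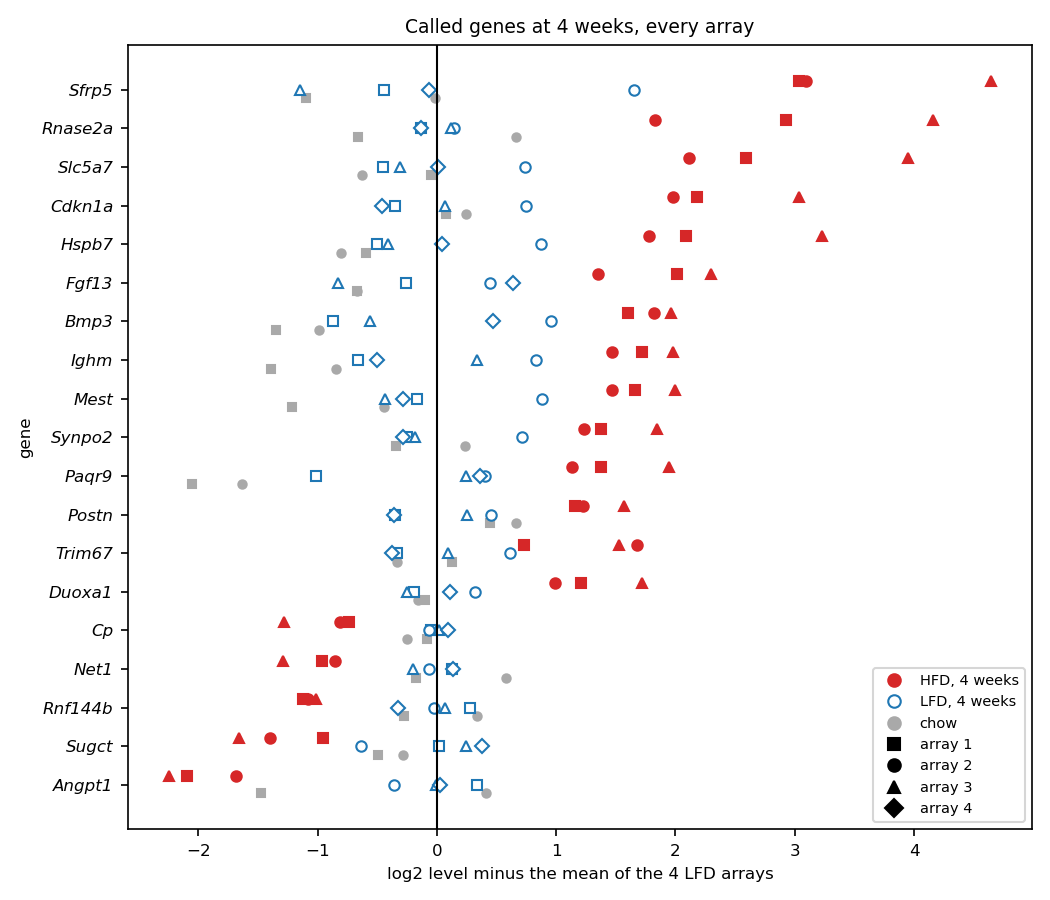
Log2 level minus the mean of the 4 LFD arrays (x axis) for called genes (y axis). Arrays are HFD (red), LFD (blue) and chow (grey). Drawn are the 14 largest rises among called genes with an established symbol, and the 5 genes that fell. Red symbols lie to the right of all blue ones for each risen gene and to the left for each fallen one, for example Sfrp5 at 8.85 to 10.46 on HFD against 4.67 to 7.47 on LFD.

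Of a list of 13 genes tied to adipocyte expansion, Sfrp5, Mest and Bmp3 rose, against 0.189% of all genes. The other 10 were not called, and 12 of 13 differences were above 0 (median 0.56); this list was assembled with earlier results of these arrays known. Sfrp5, a secreted antagonist of Wnt ligands made by adipocytes, was at 8.85, 8.91 and 10.46 on HFD and at 5.37, 7.47, 4.67 and 5.75 on LFD. Every HFD array was above every LFD array, and LFD array 2 was the only one of the 4 above 6. The difference was 3.59 ± 0.59 (SE), or 12.1-fold (adjusted p = 0.00557), the largest of the called genes.

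Mest, an imprinted gene whose level in fat is known to follow fat mass expansion, was at 11.51, 11.31 and 11.84 on HFD and at 9.68, 10.73, 9.41 and 9.56 on LFD. Its groups did not overlap and the difference was 1.71 ± 0.27 (adjusted p = 0.00557). Bmp3, a member of the bone morphogenetic protein family that antagonises other members, was at 8.59, 8.81 and 8.95 on HFD and at 6.12, 7.95, 6.43 and 7.46 on LFD. LFD arrays spread over almost 2 log2 units while HFD arrays were close together, and the difference was 1.79 ± 0.28 (adjusted p = 0.00557). Peg3, another imprinted gene, had a difference of 2.15 ± 0.51 that missed the threshold (adjusted p = 0.0869), with its groups apart.

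Fgf13, an intracellular member of the FGF family that binds sodium channels and microtubules, was at 7.66, 7.00 and 7.95 on HFD and at 5.39, 6.10, 4.82 and 6.29 on LFD. Its groups did not overlap, and the rise was 1.89 ± 0.30 (adjusted p = 0.00557; 0.0516 without array 1 of each group). Fgf13 was the only one of 18 FGF signalling genes called, Sfrp5 the only one of 21 Wnt ligands and antagonists and Bmp3 the only one of 18 BMP signalling genes, with list medians of 0.07, 0.04 and 0.15. Sfrp4, a second Wnt antagonist, had a difference of 0.94 (adjusted p = 0.143).

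Angpt1, the ligand that stabilises vessels through the Tie2 receptor, was at 6.20, 6.61 and 6.05 on HFD and at 8.63, 7.94, 8.29 and 8.32 on LFD. All HFD arrays were below all LFD arrays, chow array 1 was at 6.82 and chow array 2 at 8.71. It fell by 2.01 ± 0.36, or 4.02-fold (adjusted p = 0.0126), alone among 23 angiogenic genes. Angpt2, the competing ligand of the same receptor, had a difference in the other direction of 0.67 (adjusted p = 0.323), with groups that did not overlap.

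Cdkn1a, which encodes the cell cycle inhibitor p21 and is a textbook target of p53, had the smallest p of all genes. Its level was 9.95, 9.75 and 10.81 on HFD and 7.42, 8.52, 7.84 and 7.31 on LFD. No array of one diet reached the other, and the 2 chow arrays, at 7.85 and 8.02, were among the LFD values. The rise was 2.40 ± 0.30, or 5.27-fold (adjusted p = 0.00126), and it was called in each of the 7 fits that left out 1 array. No other of the 24 measured p53 targets and cell cycle inhibitors was called. Of the 24, 9 were higher at an unadjusted p under 0.05 and none lower, against 4.78% and 4.54% of all genes, and the list median was 0.23. Sesn2, a stress-induced regulator of mTORC1, had a difference of 0.75 (adjusted p = 0.105; 0.0451 without array 1 of each group), Cdkn2b, which encodes p15, one of 0.69 (adjusted p = 0.0984), and Mdm2, which targets p53 for degradation, one of 0.20 (adjusted p = 0.612). Genes of the cell cycle itself went along in sign without calls: 22 of 23 were above 0 (median 0.26), led by Kif20a, a mitotic kinesin, at 0.66 (adjusted p = 0.112).

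The promoter of the upstream Cdkn1a start is shown because it carries p53-type sequence. The window comes from RefSeq (GRCm38.p6, chr17:29090729-29091028, plus strand), 250 bases before to 50 after the start, with ACATGT in capitals, the core of many p53 half-sites and the same on both strands.
Cdkn1a: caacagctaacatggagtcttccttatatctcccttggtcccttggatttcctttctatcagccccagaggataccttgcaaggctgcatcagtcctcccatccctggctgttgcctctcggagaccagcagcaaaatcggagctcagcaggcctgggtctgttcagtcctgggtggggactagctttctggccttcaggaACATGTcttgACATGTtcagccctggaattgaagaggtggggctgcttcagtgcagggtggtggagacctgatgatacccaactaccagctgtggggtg
The 6 letters occur 2 times here. Among 32851 such windows of 300 bases, 5.28% held ACATGT and 0.329% held it at least 2 times. The window was chosen for these letters, so the shares describe it and test nothing. The window of the other listed Cdkn1a start held none. Of the 36 called genes with a window, 3 held ACATGT (Cdkn1a, Slc5a7 and Rap1gap2).

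Hmgcs1, the cytosolic enzyme that makes HMG-CoA for cholesterol synthesis, was the only one of 16 measured cholesterol synthesis genes called. It was at 11.41, 11.47 and 11.57 on HFD and at 10.12, 10.84, 10.34 and 10.46 on LFD, with both chow arrays lower still at 10.00 and 9.93. HFD arrays lay within 0.2 of each other and above every LFD array. The difference was 1.04 ± 0.14, or 2.06-fold (adjusted p = 0.00147), and was called in each fit that left out 1 array. Of the 16, 10 differences were above 0 and 6 below (median 0.03, but -0.02 after quantile normalization and -0.14 without array 1 of each group). Fdft1, which makes squalene, had a difference of -0.50 (adjusted p = 0.425) and Mvk, mevalonate kinase, one of 0.29 (adjusted p = 0.692). Of the sterol regulators, Insig1 and Srebf2 had differences of 0.03 and 0.22, neither called.

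The Hmgcs1 promoter is shown because it is the only one of the 36 called genes with a window, and of the 13 cholesterol synthesis genes with one, that held TCACNCCAC, a sterol regulatory element. The window is chr13:119690101-119690400 (GRCm38.p6, RefSeq, plus strand), and capitals mark TCACNCCAC and CCAAT on either strand.
Hmgcs1: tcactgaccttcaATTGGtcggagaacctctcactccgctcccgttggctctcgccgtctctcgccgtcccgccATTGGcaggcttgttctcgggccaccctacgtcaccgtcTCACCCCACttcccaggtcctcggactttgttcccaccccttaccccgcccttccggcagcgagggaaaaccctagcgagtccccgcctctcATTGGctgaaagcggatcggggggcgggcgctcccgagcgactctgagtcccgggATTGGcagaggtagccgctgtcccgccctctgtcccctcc
TCACNCCAC or its complement was in 1.24% of all windows. CCAAT occurred 4 times in this window, and 11.7% of all windows held it at least 2 times. All 13 cholesterol synthesis genes with a window held CCAAT in at least 1 window, so this element did not set Hmgcs1 apart. Of single windows 37.4% held it, which is not the same measure, as a gene may have several windows. These matches describe letters only.

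No gene of fatty acid synthesis was called with all arrays, and 15 of 16 differences were below 0 (median -0.46) and 6 had an unadjusted p under 0.05, against 4.54% of all genes. Acaca, acetyl-CoA carboxylase, the committed step, was at 10.39, 10.63 and 10.08 on HFD and at 10.53, 11.52, 12.32 and 12.37 on LFD. LFD array 1 lay between HFD arrays 1 and 2, and the other LFD arrays were above all HFD arrays. The difference was -1.32 ± 0.29 (adjusted p = 0.0651), and without array 1 of each group it was -1.72 (adjusted p = 0.0142).

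The mean of the list was 10.55, 10.46 and 10.40 on HFD and 10.35, 10.89, 11.40 and 11.51 on LFD, so LFD array 1 was below every HFD array. Without array 1 of each group the median was -0.72 and 5 of the 16 were called, against 0.298% of all genes. These were Acaca, Fasn, Elovl6, Fads1 and Acacb. Fasn, fatty acid synthase, had a difference of -0.47 with all arrays (adjusted p = 0.575) and of -0.81 without array 1 of each group (adjusted p = 0.0183). Elovl6, which elongates palmitate, had -1.11 (adjusted p = 0.601) and -1.83 (adjusted p = 0.0316). Mlxipl, the carbohydrate-responsive regulator ChREBP, had -0.75 (adjusted p = 0.241) with groups that did not overlap, whereas Srebf1 and Scd1 had -0.13 and -0.14. Acly, ATP citrate lyase, had -0.87 (adjusted p = 0.600). On chow the list was at 10.65 and 10.09, nearer the HFD arrays than LFD arrays 3 and 4. LFD array 1 also carried epididymis and hepatocyte transcripts, whose part in its low lipogenic level was not tested.

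Of 34 collagen and matrix genes, 5 rose (Col6a1, Col6a2, Col6a3, Postn and Col18a1) and none fell, against 0.189% and 0.0225% of all genes. The other 29 were not called; 18 of the 34 were higher at an unadjusted p under 0.05 and 2 lower, with 28 differences above 0, 6 below and a median of 0.53. Collagen VI is the microfibril that coats adipocytes and limits how far they can expand, and its main form joins 1 chain each of Col6a1, Col6a2 and Col6a3. Col6a1 was at 11.28, 11.29 and 11.43 on HFD and at 9.45, 10.64, 10.43 and 10.08 on LFD. The HFD arrays were all above the LFD arrays, of which array 1 was lowest, and the difference was 1.18 ± 0.19 (adjusted p = 0.00557). Col6a2 was at 9.88, 9.97 and 10.16 against 8.34, 9.52, 9.25 and 8.89, a difference of 1.00 ± 0.19 (adjusted p = 0.0196). Col6a3 was at 9.37, 9.04 and 9.41 against 7.83, 8.60, 8.56 and 8.41, a difference of 0.92 ± 0.17 (adjusted p = 0.0126; 0.70 with an adjusted p of 0.0828 without array 1 of each group). The order of the LFD arrays was the same in all 3 chains.

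The alternative chains went the other way. Col6a5 was at 8.31, 8.09 and 8.58 on HFD and at 10.02, 9.42, 9.93 and 8.67 on LFD, and Col6a6 had a similar separation. Their differences of -1.18 ± 0.35 and -0.67 ± 0.19 missed the threshold (adjusted p = 0.222 and 0.19), and these 2 genes were picked after their values were seen.

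Promoters of the 3 chains that rose together are shown side by side, from RefSeq (GRCm38.p6), all on the minus strand: chr10:76725995-76726294 for Col6a1, chr10:76623355-76623654 for Col6a2 and chr1:90843922-90844221 for Col6a3. Capitals mark TGANTCA (an AP-1 site) and GGGCGG (a GC box) on either strand. For Col6a2 only the window with the lowest coordinates was taken.
Col6a1: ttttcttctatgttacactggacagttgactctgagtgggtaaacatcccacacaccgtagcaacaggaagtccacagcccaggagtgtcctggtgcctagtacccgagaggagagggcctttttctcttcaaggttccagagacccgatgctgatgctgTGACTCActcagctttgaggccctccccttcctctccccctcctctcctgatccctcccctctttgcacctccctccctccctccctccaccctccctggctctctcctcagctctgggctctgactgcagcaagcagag
Col6a2: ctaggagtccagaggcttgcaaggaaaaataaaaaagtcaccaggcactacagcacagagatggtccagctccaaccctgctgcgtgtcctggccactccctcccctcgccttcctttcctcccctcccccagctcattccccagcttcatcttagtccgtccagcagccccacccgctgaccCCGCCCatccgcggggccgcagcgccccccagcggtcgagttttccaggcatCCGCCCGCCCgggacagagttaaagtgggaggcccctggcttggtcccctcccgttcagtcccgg
Col6a3: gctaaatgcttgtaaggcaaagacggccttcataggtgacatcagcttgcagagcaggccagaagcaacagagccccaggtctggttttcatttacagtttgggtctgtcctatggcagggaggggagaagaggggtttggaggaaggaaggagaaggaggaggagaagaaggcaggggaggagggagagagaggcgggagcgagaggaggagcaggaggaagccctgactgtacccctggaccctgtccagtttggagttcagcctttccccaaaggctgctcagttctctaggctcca
Col6a1 held 1 AP-1 match and no GC box, Col6a2 held 3 GC boxes and no AP-1 match, and Col6a3 held neither. Among all windows, 7.81% held TGANTCA and 35.7% held GGGCGG. Of the 36 called genes with a window, 5 and 23 held them in at least 1 window, which is not a share of single windows. The 3 chains therefore shared neither element in these windows.

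Other matrix genes rose too. Postn, periostin, which promotes collagen cross-linking, was at 10.54, 10.60 and 10.95 on HFD and at 9.03, 9.83, 9.63 and 9.02 on LFD. Groups did not overlap, and the difference was 1.32 ± 0.22 (adjusted p = 0.00604). Col18a1, the basement membrane collagen that yields endostatin, rose by 0.63 ± 0.13 (adjusted p = 0.0467) and Pcolce2, an enhancer of procollagen processing, by 1.15 ± 0.24 (adjusted p = 0.0478). Serpinf1, the secreted factor PEDF, rose by 0.97 ± 0.20 (adjusted p = 0.0356). Among 17 matrix proteases and inhibitors none was called with all arrays. The protease Mmp9 had -0.81 (adjusted p = 0.0653) and -0.96 without array 1 of each group (adjusted p = 0.0142), and its inhibitor Timp1 had 0.96 (adjusted p = 0.235). Of 16 progenitor and fibroblast genes none was called (median 0.22); Col14a1, a fibroblast collagen, was closest at 0.76 (adjusted p = 0.077).

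Several other called genes, set side by side here after their values were seen, encode proteins of the cytoskeleton, cell contacts or membranes; no list of such genes was examined. Synpo2, an actin-binding protein, was at 8.85, 8.70 and 9.32 on HFD and at 7.22, 8.18, 7.29 and 7.19 on LFD. LFD array 2 stood above the other LFD arrays yet below all HFD arrays, and the rise was 1.49 ± 0.22 (adjusted p = 0.00403). Palld, which cross-links actin, rose by 1.04 ± 0.20 (adjusted p = 0.0199), Myl12b, a myosin light chain, by 0.55 ± 0.12 (adjusted p = 0.0456), Pkp2, a desmosome plaque protein, by 1.03 ± 0.16 (adjusted p = 0.00557) and Krt79, a keratin, by 1.27 ± 0.25 (adjusted p = 0.0242). The calcium-dependent membrane binders Anxa2 and Anxa5 rose by 0.93 ± 0.15 (adjusted p = 0.00557) and 0.61 ± 0.13 (adjusted p = 0.0472). Net1, an exchange factor for RhoA, was at 9.10, 9.21 and 8.77 on HFD and at 10.19, 10.00, 9.86 and 10.20 on LFD. It fell by 1.04 ± 0.17 (adjusted p = 0.00557), with groups apart.

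Slc5a7, the high-affinity choline transporter best known from cholinergic neurons, was at 7.48, 7.00 and 8.84 on HFD and at 4.44, 5.63, 4.58 and 4.90 on LFD. All HFD arrays were above all LFD arrays and chow was at 4.84 and 4.26. The rise was 2.89 ± 0.46, or 7.39-fold (adjusted p = 0.00557). None of the other 13 choline handling genes was called, and the list median was 0.00.

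Hspb7, a small heat shock protein, was at 8.77, 8.46 and 9.91 on HFD and at 6.18, 7.55, 6.27 and 6.72 on LFD. Its groups did not overlap and the rise was 2.37 ± 0.39, or 5.16-fold (adjusted p = 0.00557). It was the only one of 15 heat shock genes called; the small heat shock genes Hspb1 and Cryab had 0.87 and 0.61 (adjusted p = 0.280 and 0.344). Edem1, which marks misfolded glycoproteins for degradation, was the only one of 24 unfolded protein response genes called, at 0.65 ± 0.12 (adjusted p = 0.0178; 0.0504 without array 1 of each group, and 0.0937 for the mean of its 2 clusters).

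Rnase2a, a member of the eosinophil-associated ribonuclease family, was at 7.50, 6.40 and 8.73 on HFD and at 4.44, 4.72, 4.69 and 4.44 on LFD. LFD arrays were within 0.3 of each other and HFD arrays spread over more than 2 log2 units, all above LFD. The rise was 2.97 ± 0.52, or 7.84-fold (adjusted p = 0.0105), but this family has near-identical copies that an array may not separate. The eosinophil genes Siglecf, Epx, Prg2, Ccr3, Il5ra and Alox15 lay between 3.30 and 6.61 on the 7 arrays and had differences of -0.19 to 0.08, none with an unadjusted p under 0.05.

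The fixed list held eosinophil and mast cell genes together, with 4 of 16 differences above 0 and 12 below. Its split by cell type was not one of the fixed lists. For its 6 mast cell genes all differences were below 0. In 4 of the 6 the groups did not overlap (4.41% of all genes did so in that direction), without a call. Tpsb2, a mast cell tryptase, was at 5.80, 5.66 and 5.52 on HFD and at 6.49, 6.65, 6.72 and 6.41 on LFD, a difference of -0.91 ± 0.23 (adjusted p = 0.127). Cpa3, mast cell carboxypeptidase, had -0.93 (adjusted p = 0.209), and Mcpt4 and Cma1, both chymases, had -0.89 and -0.54, neither called. The last 2 were picked after their values were seen. Mcpt4 was low, at 3.54 to 4.91 on the 7 arrays, against array medians of 5.07 to 5.36. At 8 and 12 weeks Tpsb2 had -0.21 and -0.13.

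Ighm, the heavy chain of IgM, was at 12.92, 12.67 and 13.18 on HFD and at 10.54, 12.03, 11.54 and 10.70 on LFD. Every HFD array was above every LFD array, and the rise was 1.72 ± 0.34 (adjusted p = 0.0299; 1.50 with an adjusted p of 0.133 without array 1 of each group). Ighm had 7 transcript clusters, of which the one with the highest mean level was used, and the mean of the 7 gave 0.03 ± 0.29 (adjusted p = 0.989), which was not called. The other 11 B cell genes lay between 3.51 and 6.59 and had differences of -0.67 to 0.28, none with an unadjusted p under 0.05. Lbp, which presents bacterial lipopolysaccharide to immune cells, was at 11.54, 11.60 and 11.97 on HFD and at 10.01, 11.07, 10.66 and 10.55 on LFD, a rise of 1.13 ± 0.19 (adjusted p = 0.00557). Malt1, a signalling protease upstream of NF-kB, rose by 0.76 ± 0.16 (adjusted p = 0.0392).

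None of 21 macrophage genes was called, though 17 were above 0 (median 0.27) and 3 were higher and 1 lower at an unadjusted p under 0.05. Of 14 markers of lipid-associated macrophages none was called, 13 were above 0 (median 0.51) and 3 were higher at an unadjusted p under 0.05. Cd68, a macrophage lysosomal protein, was at 9.54, 9.95 and 10.15 on HFD and at 8.72, 9.76, 8.97 and 8.91 on LFD, so LFD array 2 lay among the HFD arrays. Its difference was 0.79 (adjusted p = 0.430). Trem2, a lipid-sensing receptor of these macrophages, had 0.30, Itgax, which encodes CD11c, 0.77 and Gpnmb 1.08 (adjusted p = 0.872, 0.509 and 0.609). Ccl2, which attracts monocytes, was at 7.15, 7.28 and 8.93 on HFD and at 6.36, 6.83, 6.35 and 6.28 on LFD; its groups did not overlap, but 1.33 ± 0.39 missed the threshold (adjusted p = 0.213). The cytokine genes Tnf and Il6 had 0.21 and 0.00, and the acute-phase gene Saa3 had 1.15, none called. Of the 33 genes on the cytokine and acute-phase list, only Cp was called, and it was lower. Lbp, which rose as given above, was not on that list. Cp, ceruloplasmin, a copper-carrying ferroxidase, was at 9.65, 9.57 and 9.10 on HFD and at 10.33, 10.32, 10.40 and 10.48 on LFD, and fell by 0.94 ± 0.19 (adjusted p = 0.0392). LFD arrays were within 0.2 of each other and all above HFD.

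The mature adipocyte genes were not called: of 14, 6 differences were above 0 and 8 below (median -0.07). At an unadjusted p under 0.05, 1 of the 14 was higher and 4 were lower, against 4.78% and 4.54% of all genes. Lep, leptin, was at 13.09, 12.91 and 13.36 on HFD and at 12.37, 12.76, 12.17 and 12.56 on LFD. Its groups did not overlap, with a difference of 0.66 ± 0.24 (adjusted p = 0.349). Adipoq had 0.01, and Pparg, the adipocyte master regulator, had -0.20. Fam13a, a regulator of adipocyte insulin response, had -1.39 (adjusted p = 0.228). Nampt and Nat8l had -0.69 and -1.04 (adjusted p = 0.157 and 0.228). Slc2a4, the insulin-responsive glucose transporter, had -0.47 and Irs1 -0.44. All 18 measured genes of branched-chain amino acid catabolism were below 0 (median -0.28), with 6 at an unadjusted p under 0.05 and none called, Acadsb at -0.49 being nearest (adjusted p = 0.331). The thermogenic gene Ucp1 was between 3.81 and 4.21 on all 7 arrays.

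**Figure D3:**
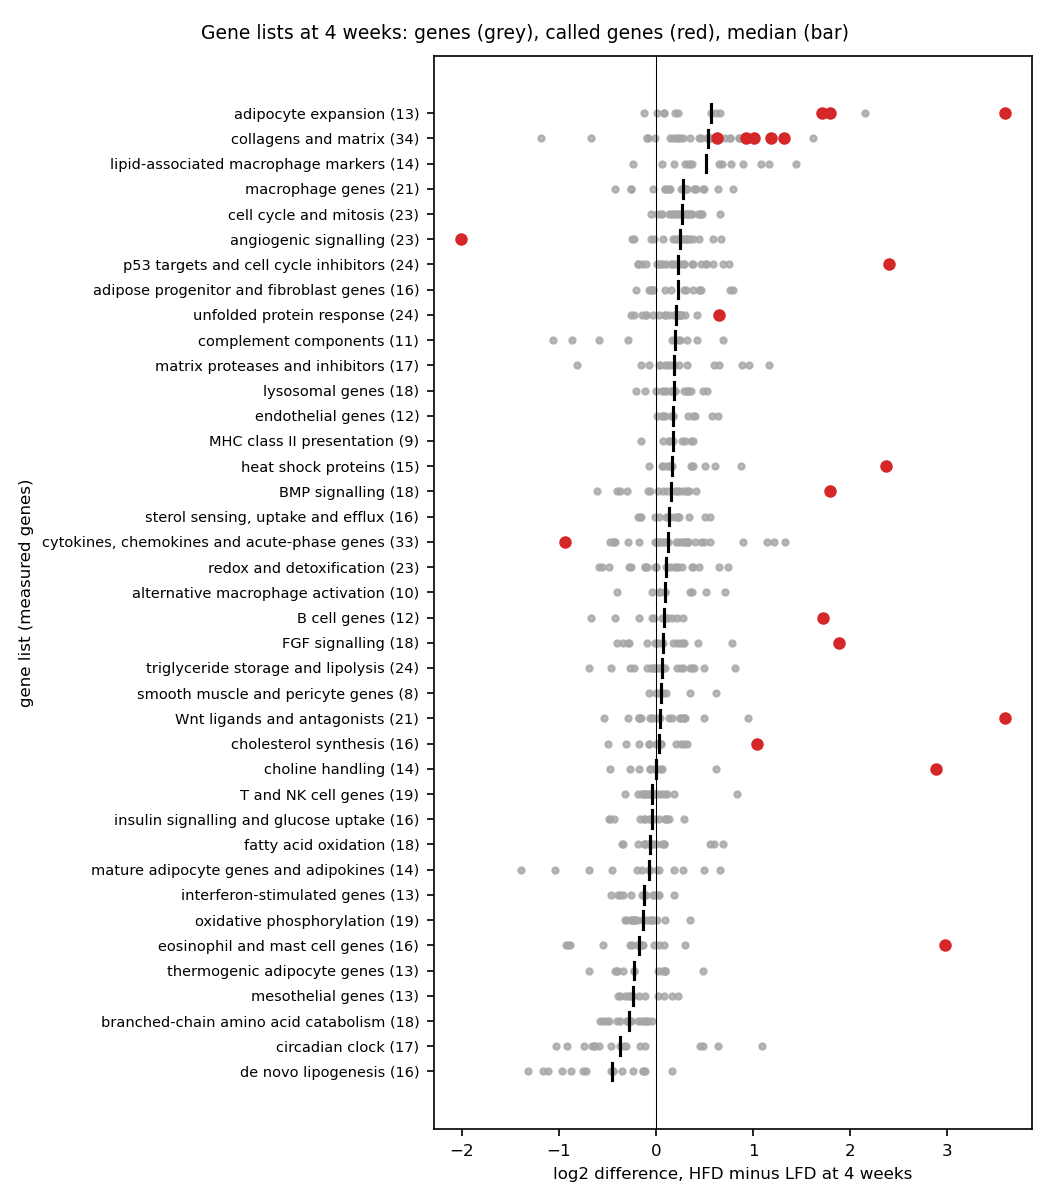
Log2 difference, HFD minus LFD at 4 weeks (x axis), for the measured genes of each list drawn (y axis, number in brackets). Grey dots are genes, red dots called genes and bars list medians. Lists of other organs, red blood cells, nerve and neutrophils are not drawn. Among these, the epididymis genes had the highest median of all lists, 1.73 with all arrays. Adipocyte expansion (median 0.56) and collagens and matrix (0.53) are at the top, and circadian clock (-0.38) and de novo lipogenesis (-0.46) at the bottom.

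Of 17 clock genes none was called in the fit of all arrays; 4 differences were above 0 and 13 below (median -0.38), with 3 higher and 7 lower at an unadjusted p under 0.05. Arntl, which encodes the activator BMAL1, was at 7.05, 7.70 and 7.92 on HFD and at 6.70, 6.94, 6.22 and 6.00 on LFD, a difference of 1.09 ± 0.25 (adjusted p = 0.0683). Per3, a repressor that BMAL1 and CLOCK drive, was at 8.26, 8.03 and 7.60 on HFD and at 8.48, 8.98, 9.15 and 9.36 on LFD, a difference of -1.03 ± 0.23 (adjusted p = 0.0653). The groups did not overlap in either gene. The 9 clock-controlled genes Per1, Per3, Cry2, Nr1d1, Nr1d2, Dbp, Tef, Hlf and Ciart, a group formed after their values were seen, were all below 0. Nfil3, a repressor of D-box genes, went the other way at 0.64 ± 0.17 (adjusted p = 0.143) with groups that did not overlap. Without array 1 of each group 4 of the 17 were called, against 0.298% of all genes. These were Per3 at -1.35 (adjusted p = 0.0142), Arntl at 1.42 (adjusted p = 0.0284), Nr1d2 at -0.89 (adjusted p = 0.0316) and Dbp at -1.38 (adjusted p = 0.0445). The hour of tissue collection is not given in the sources used here, and its part in these values was not tested.

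The remaining called genes were of mixed function. Among those that fell, Rnf144b, a ubiquitin ligase, was at 7.79, 7.83 and 7.90 on HFD and at 9.19, 8.89, 8.98 and 8.59 on LFD, and fell by 1.07 ± 0.19 (adjusted p = 0.0121; 0.0632 without array 1 of each group). Sugct, a mitochondrial CoA transferase that acts on glutarate, was at 6.10, 5.66 and 5.40 on HFD and at 7.07, 6.42, 7.30 and 7.43 on LFD, and fell by 1.34 ± 0.26 (adjusted p = 0.0294). In both genes all HFD arrays were below all LFD arrays.

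Among those that rose, Paqr9, a member of the progestin and adipoQ receptor family, was at 9.29, 9.05 and 9.86 on HFD and at 6.90, 8.32, 8.16 and 8.28 on LFD, a rise of 1.49 ± 0.30 (adjusted p = 0.0378; 0.0926 without array 1 of each group). LFD array 1 was far below the other LFD arrays, which were still under HFD. Duoxa1, a maturation factor of dual oxidase, was at 6.63, 6.41 and 7.14 against 5.23, 5.74, 5.17 and 5.53, a rise of 1.31 ± 0.26 (adjusted p = 0.0355). Trim67, a member of the tripartite motif family, was at 5.66, 6.60 and 6.45 against 4.59, 5.54, 5.02 and 4.55, a rise of 1.31 ± 0.24 (adjusted p = 0.0126). For Trim67, HFD array 1 was barely above LFD array 2.

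Signalling genes among the rest were Ret, the receptor of GDNF-family ligands (1.16, adjusted p = 0.0199), Rap1gap2, which inactivates Rap1 (0.99, adjusted p = 0.0199), Dtx4, a ubiquitin ligase of the Notch pathway (0.84, adjusted p = 0.0355), and Tsc22d2 (1.07, adjusted p = 0.00403). Atp2a3, a calcium pump of the endoplasmic reticulum, rose by 1.15 (adjusted p = 0.0355), Fmr1, an RNA-binding protein, by 0.84 (adjusted p = 0.00557) and Lxn, a carboxypeptidase inhibitor, by 0.49 (adjusted p = 0.0221). Stambpl1, a deubiquitinase, rose by 1.21 (adjusted p = 0.0456), and Bpifb6 and Grid1 by 0.81 and 0.59 (adjusted p = 0.0196 and 0.0392). The 2 called genes with provisional names rose by 3.33 (1700047G03Rik) and 1.34 (Gm5627). Dtx4 was the called gene whose groups overlapped, HFD array 1 at 8.10 lying below LFD array 2 at 8.14.

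Without array 1 of HFD, LFD and chow, 66 genes were called (0.298%), 48 higher and 18 lower, and 29 of the 47 were among them. The 18 that were not had adjusted p values of 0.0504 to 0.136 there: Fgf13, Rnf144b, Col6a3, Edem1, Bpifb6, Ret, Lxn, Ighm, Atp2a3, Duoxa1, Paqr9, Malt1, Grid1, Cp, Myl12b, Stambpl1, Col18a1 and Anxa5. The differences of the 47 were 0.76 to 1.16 times those with all arrays. Besides the lipogenic, clock and protease genes given above, the genes called there and not with all arrays included Azin2, an antizyme inhibitor, at -0.68, Atp5d, an ATP synthase subunit, at 0.97, and the signalling genes Arhgap23 and Bcar3 at 0.83 and 0.84. With epididymis and hepatocyte covariates 219 genes were called, among them all 47. Epididymis genes, whose median difference was 1.73 with all arrays, had one of -0.06 without array 1 of each group.

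Chow offered a second reference. In 46 of the 47 called genes the chow mean was nearer the LFD than the HFD mean, and in all 47 chow array 2, which lacked epididymis transcripts, lay outside the HFD range on the LFD side. Of the 42 risen genes, 41 had all HFD arrays above both chow arrays. Choice by the HFD and LFD values favours this order, so it is given as a description.

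Of the 16 arrays at 8 and 12 weeks, 11 carried liver transcripts (mean of the hepatocyte genes above 8). The hepatocyte list had a median difference of 2.13 at 8 weeks and -1.57 at 12, against -0.22 at 4. The part of liver transcripts in the later values was not tested. The called genes kept their direction later on. In other mice with LFD arrays of their own, all 47 had the same sign at 8 weeks and all 47 at 12 weeks, whereas 56.2% and 61.4% of all genes did. At 8 weeks 36 were called too (76.6% of the 47 and 6.75% of the 533 called then), and at 12 weeks 42 (89.4% of the 47 and 4.25% of the 989 called then). Background calls were 2.4% and 4.46% of genes. The contrasts at 4, 8 and 12 weeks share 1 estimate of spread per gene, so a gene with a small spread is favoured at each. All 3 times called 34. The median absolute difference of the 47 was 1.15 at 4 weeks, 0.78 at 8 and 1.07 at 12, but the 47 were chosen at 4 weeks, which favours larger values there. Cdkn1a had 2.40, 1.74 and 2.36 at 4, 8 and 12 weeks, Sfrp5 3.59, 4.04 and 3.42, and Slc5a7 2.89, 3.75 and 3.89. Genes called at neither later time were Fmr1 (0.47 and 0.27), Myl12b (0.13 and 0.10) and Col18a1 (0.44 and 0.29).

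Seen from the later times, 335 genes were called at both 8 and 12 weeks in 1 direction. At 4 weeks 328 of them had the same sign, 169 with an unadjusted p under 0.05, and 34 were called. Their median absolute difference was 0.44 at 4 weeks against 0.91 at 8 and 0.98 at 12, with the later values favoured by the choice.

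**Figure D4:**
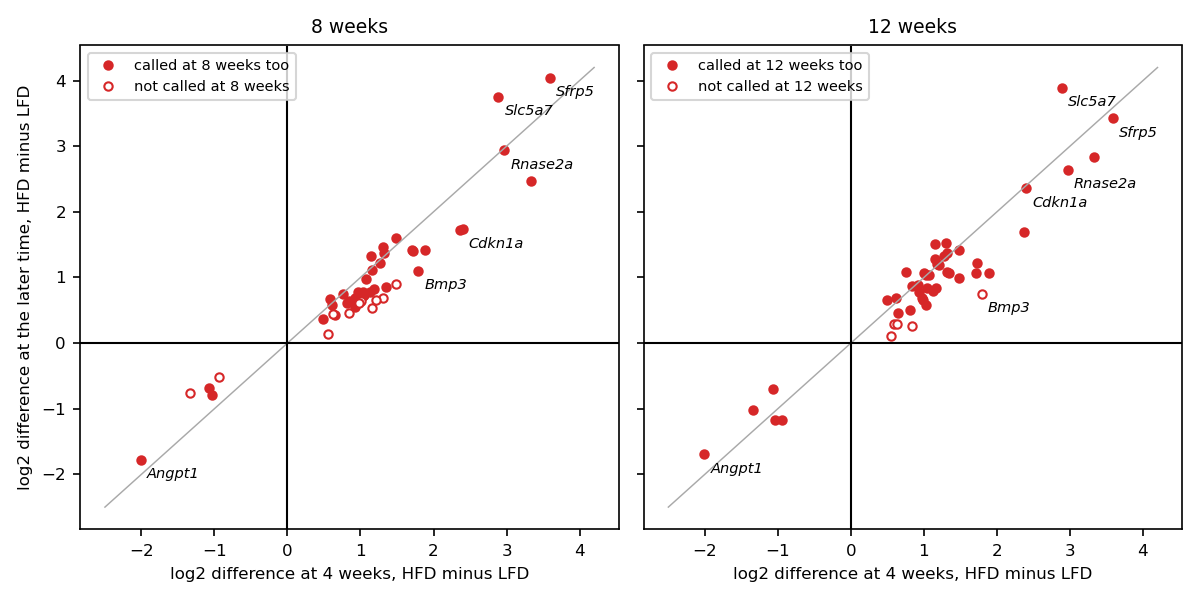
Log2 difference of the 47 called genes at 4 weeks (x axis) against that at 8 weeks (left) and 12 weeks (right, y axis), HFD minus LFD; filled points were called at the later time too and the diagonal marks equal values. All points lie at the lower left or upper right of the origin, with 36 filled at 8 weeks and 42 at 12 weeks.

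Whether the diet difference at 4 weeks departed from its mean at 8 and 12 weeks was tested directly. limma called 0 of 22180 genes (1392, or 6.28%, at an unadjusted p under 0.05). Col6a5, named after its values were seen, was among the genes with the smallest p: its difference of -1.18 at 4 weeks was followed by 0.41 at 8 and 1.47 at 12 weeks (4 weeks minus later -2.12 ± 0.41, adjusted p = 0.443). The macrophage list had medians of 0.27, 0.72 and 0.95 at 4, 8 and 12 weeks with 0, 8 and 15 of 21 called. Of all genes 0.212%, 2.4% and 4.46% were called at these times. Trem2 had 0.30, 1.43 and 2.23. Acaca had -1.32, -2.31 and -2.21. None of these changes over time was called in the fit of all arrays, so the macrophage and lipogenic genes are not shown to differ between times. The later values here include the 11 arrays with liver transcripts.

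**Figure D5:**
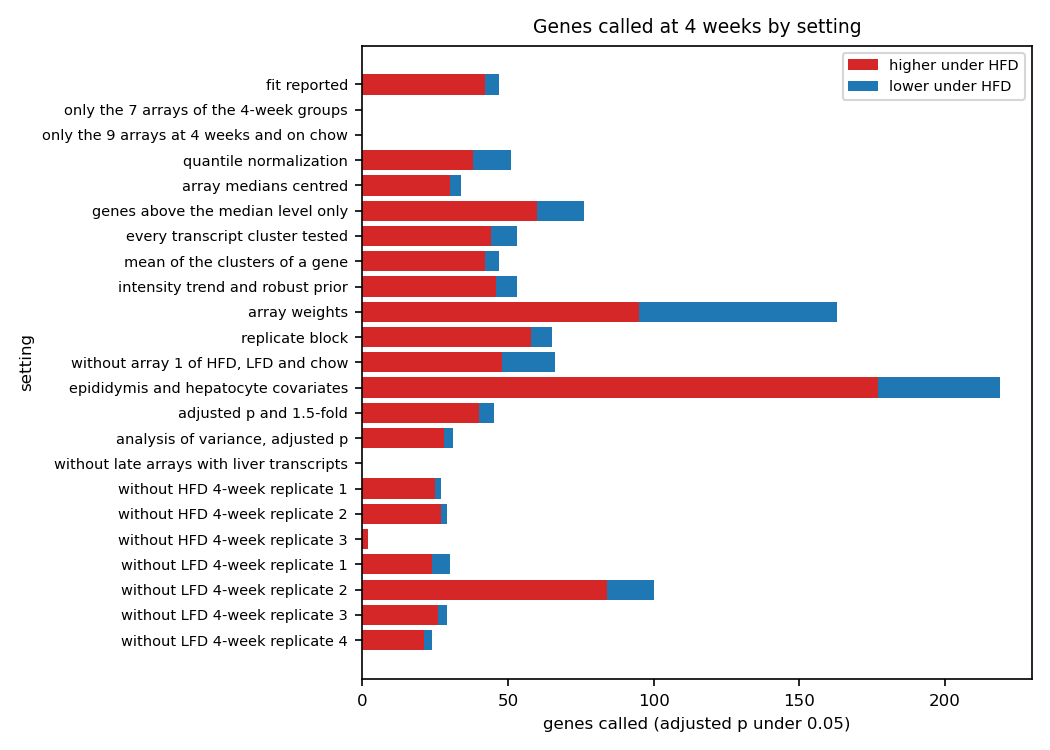
Number of genes called at 4 weeks (x axis), higher (red) and lower (blue) on HFD, under each setting (y axis). The reported fit gave 47, the fits of 7 or 9 arrays 0, the fit without LFD array 2 gave 100 and the fit with epididymis and hepatocyte levels as covariates 219.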

How the data were processed

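RNA of gonadal fat from 25 mice was hybridised to Affymetrix Mouse Gene 2.0 ST arrays. The values the authors deposited were log2 levels, as their range shows, and came from the Transcriptome Analysis Console per the submitters' processing notes, with background correction and array scaling not given in the sources used here. Of 34472 transcript clusters, 23521 had 1 gene symbol, 1814 several and 9137 none. The cluster with the highest mean stood for each of 1082 genes with more than 1, giving 22180 genes, without a filter on level.

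A model of the 7 groups was fitted to all arrays (18 residual degrees of freedom) with limma 3.58.1 (R 4.3.3), and HFD minus LFD at 4 weeks was tested with the moderated test, as was its departure from the mean difference at 8 and 12 weeks. Genes were called at a Benjamini-Hochberg adjusted p under 0.05 over all 22180 genes. Errors are moderated standard errors. The script was tested on simulated data. Precision is limited by 3 and 4 arrays a group.

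The comparison, the 48 gene lists (809 genes, 739 measured) and the panel of single genes were chosen with earlier results of these data known. Lists are described by counts and medians. Genes named were all called genes with an established symbol (14 largest rises and all falls with every array), up to 3 members of a list with few calls, the panel, and 8 genes called only without array 1 of each group; exceptions are stated. Alternatives covered normalization, filters, cluster choice, prior, array weights, a replicate block, covariates, an analysis of variance and leaving out arrays. Promoter windows were from RefSeq.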

Additional observations from a re-analysis of the deposited data

Results flagged for a closer look

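In the LFD group, the only 4-week group large enough for the check, 1 array stood far from the other 3 in 12 of 179 sets of values examined (6.7%); chance alone marks about 1 in 20. LFD array 1 was the distant array in 9 of the 12 and LFD array 2 in 3.

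LFD array 2 was high for Synpo2 at 8.18, Ccl2 at 6.83 and Peg3 at 9.48, each time toward the HFD arrays. LFD array 1 was low for Paqr9 at 6.90, Irs1 at 7.94, Nfil3 at 5.59, Hspb1 at 5.80 and the progenitor gene Pi16 at 6.63. LFD array 1 was also low in the mean of the triglyceride storage and lipolysis list (10.58), the insulin signalling and glucose uptake list (8.41) and the angiogenic signalling list (7.48), and high in that of the epididymis genes (5.88).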

How the results depend on the processing

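The 47 called genes kept their direction in every setting run (1 of them was not tested among genes above the median level). Direction could not change in fits that altered only the error, the genes tested or the arrays of other groups. With the mean of the clusters of a gene Ighm, at 0.03, and Edem1 were no longer called. The number of called genes did not hold. It was 0 in the fits of the 7 arrays and of the 9 arrays at 4 weeks and on chow, and 0 without 11 late arrays with liver transcripts, a setting chosen after seeing the data; these fits have fewer arrays. It was 76 among genes above the median level, 163 with array weights, 219 with epididymis and hepatocyte covariates, 31 in the analysis of variance with adjusted p, and 466 with its unadjusted p and a 1.5-fold limit. Leaving out 1 array gave 2 to 100. The cause of these shifts was not tested. The share of higher among called genes went from 42 of 47 to 38 of 51 with quantile normalization and 30 of 34 with array medians centred.

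The departure of 4 weeks from later times gave 0 calls except 415 by the unadjusted analysis of variance and 4, all lower, without the late arrays with liver transcripts (Trem2 -2.60, Gas2l3 -1.65, Igkv5-43 -2.39 and Olfr111 -3.19).

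Same-numbered HFD and LFD arrays deviated together with correlations of 0.278, 0.0506 and 0.179, which does not establish pairing, and HFD array 2 correlated best with LFD array 3; a replicate block gave 65 calls, 41 of them shared.

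Signs turned for genes near 0 or tied to other organs: Adipoq (-0.039 with quantile normalization, -0.0025 with array weights, -0.021 with the replicate block, and -0.028 to 0.03 on leaving out 1 array), Pparg (0.0041 with covariates), Srebf1 (-0.40 to 0.043 on leaving out 1 array), Insig1 (-0.15 with weights, -0.21 without array 1 of each group, -0.0704 with covariates, -0.2 to 0.315 on leaving out 1 array), Il6 (-0.0042 with weights, -0.028 with the block, -0.11 to 0.1 on leaving out 1 array), Gpx5 (-1.16 without array 1 of each group, -1.28 with covariates, -2.265 to 2.65 on leaving out 1 array) and Alb (-2.02 to 0.205 on leaving out 1 array).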
